A study of Mus musculus with 30 samples.

Results

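The subunits of respiratory complex I were described as the genes whose symbol begins with Ndufa, Ndufb, Ndufc, Ndufs, or Ndufv, with the Ndufaf assembly factors left out. Only probe sets annotated to 1 gene were read. The rule found 36 genes, and 35 of them were among the 12156 genes tested, on 73 of the 24069 probe sets kept. Ndufb4 was removed by the filter on weak signal, with a highest probe set mean of 4.08 on the log2 scale. Ndufs6 and Ndufa11 lay only on probe sets shared by several genes and were not analysed here.

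Liver RNA (left lobe) was hybridised to expression arrays, 1 per mouse. The mice were males, 6 to 9 months old, given perfluorooctane sulfonate (PFOS) as its potassium salt by gavage for 7 days. WT mice (129S1/SvlmJ) and PPARα-null mice (Null, 129S4/SvJae-Pparatm1Gonz/J), which carry a disrupted Ppara gene in every cell, received 0, 3, or 10 mg/kg in 0.5% Tween 20. The controls received the vehicle. Each of the 6 groups had 5 mice, 30 arrays in all. The purchased mice, kept as an inbred colony, differed in substrain as well as in Ppara, so that genotype and substrain cannot be told apart here. All values are log2 expression values per probe set, and a level of one gene is never set against that of another.

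Complex I is the entry point of the respiratory chain in the inner mitochondrial membrane. It takes electrons from NADH, passes them through a flavin and a chain of iron-sulfur clusters to ubiquinone, and pumps protons. Its core subunits carry out this chemistry, and a larger number of accessory subunits surround them and are needed for assembly and stability. Nuclear genes encode the matrix arm and all accessory subunits, while mitochondrial DNA encodes the core of the membrane arm. Hepatocytes are rich in mitochondria. PPARα is a receptor for fatty acids that governs the genes of fatty acid oxidation in the liver.

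Array medians lay between 5.6 and 5.7, and precision is limited by having 5 arrays per group. Replicates 4 and 5 of the arrays labelled WT 0 mg/kg stood apart from their group. For Ppara and Cyp2b10 the mean over all kept probe sets of the gene is given. Ppara, the disrupted gene, had log2 values of 9.93 to 10.77 in the other WT arrays and 8.78 to 9.81 in the Null arrays. In these 2 arrays it was 8.66 and 8.74, and their Cyp2b10 values were 12.80 and 12.93, against 7.82 to 8.20 in the other WT controls. Cyp2b10 was 6.8 to 9.1 in Null controls, 11.6 to 12.9 in treated WT arrays, and 10.5 to 13.2 in treated Null arrays. For this gene the 2 arrays thus lay among the treated arrays of both genotypes. The 2 arrays lay on the Null side in 100% of 22 probe sets that separate the genotypes among the remaining arrays. The name WT control is used here for the arrays so labelled. Counts, medians, and calls of subunits that rest on these 2 doubted arrays are given with and without them, except where said. They enter no comparison within Null mice.

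The mean over the 35 subunits was lower in all 10 treated Null livers than in any other liver but 1. In Null controls the mean log2 value was 11.18, 11.37, 11.30, 11.34, and 11.26 in the 5 arrays. It was 10.93, 10.97, 11.05, 10.76, and 10.91 after 3 mg/kg, and after 10 mg/kg 11.05, 11.06, 10.90, 10.79, and 11.01. No treated Null array reached the lowest Null control, while the 2 treated groups overlapped. As group means, these were 11.29 ± 0.071 (SD, n = 5), 10.92 ± 0.107, and 10.96 ± 0.113. In WT livers the means were 11.13 ± 0.058, 11.18 ± 0.126, and 11.21 ± 0.051 at 0, 3, and 10 mg/kg, and these groups overlapped. The doubted arrays had 11.057 (replicate 4) and 11.178 (replicate 5), at either end of the other WT controls (11.08 to 11.17). Both lay above all 10 treated Null arrays, replicate 4 barely, since the highest of these had 11.055. Both lay below the lowest Null control (11.184). Whether their labels are right was not tested.

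**Figure D1:**
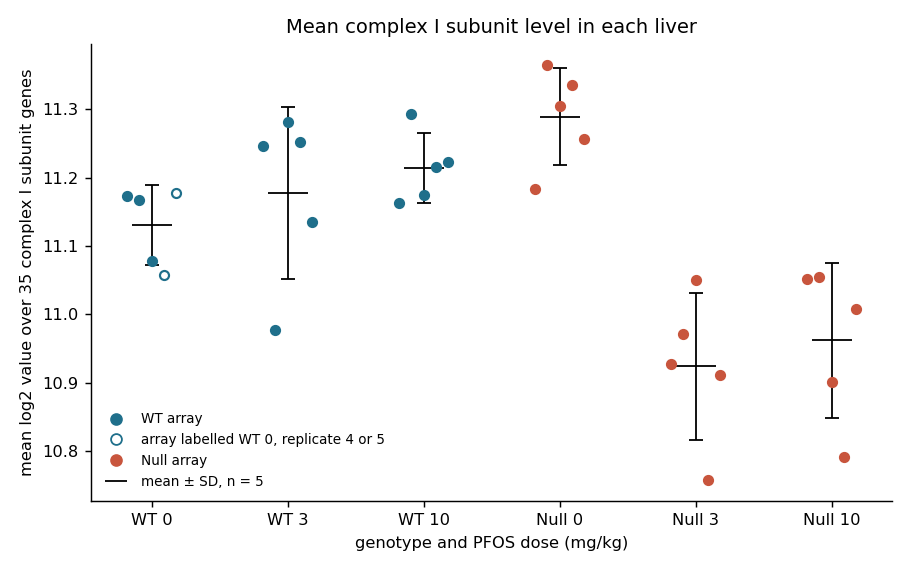
Mean log2 value over the 35 complex I subunit genes (vertical axis) in each of the 30 livers, by genotype and PFOS dose in mg/kg (horizontal axis). Points are arrays, open points mark the 2 doubted WT controls, and error bars show the group mean ± SD (n = 5). All 10 treated Null livers lay at 11.06 or lower and all 5 Null controls at 11.18 or higher, and WT replicate 2 at 3 mg/kg (10.98) was the lowest WT liver.

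The first question was whether PFOS changed complex I expression in mice without PPARα. In Null livers 24 of the 35 subunits fell at 3 mg/kg (limma, Benjamini-Hochberg adjusted p under 0.05) and 0 rose, while 3.13% of all genes tested fell and 2.02% rose. In livers given 10 mg/kg 21 fell and 0 rose, while 4.96% of all genes tested fell and 4.14% rose. The subunits had a median change of -0.39 (3 mg/kg) and -0.34 (10 mg/kg), where all genes tested had 0.00 at both doses. Changes ran from -0.63 to 0.01 at 3 mg/kg and from -0.79 to 0.11 at 10 mg/kg, so that the largest was a 1.73-fold fall. In 28 subunits every array at 3 mg/kg lay below every control, as in 5.36% of all genes, and at 10 mg/kg this held for 20 subunits, as in 5.03%. These values of the 2 doses share their control arrays. In bulk liver, fewer cells of a type and less RNA per cell cannot be told apart.

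The count at 3 mg/kg depended on single arrays. It was 13, 14, and 12 without Null control replicate 2, 3, or 4, and 15 and 13 without replicate 1 or 5 at 3 mg/kg. The count at 10 mg/kg stayed between 14 and 25 with any 1 array left out. Between 10 and 3 mg/kg in Null mice no subunit was called by limma, 0 had an unadjusted p under 0.05, the methods' t-test called 0, and 0% of all genes were called in either direction. The median difference of the subunits between the doses was 0.05.

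**Figure D2:**
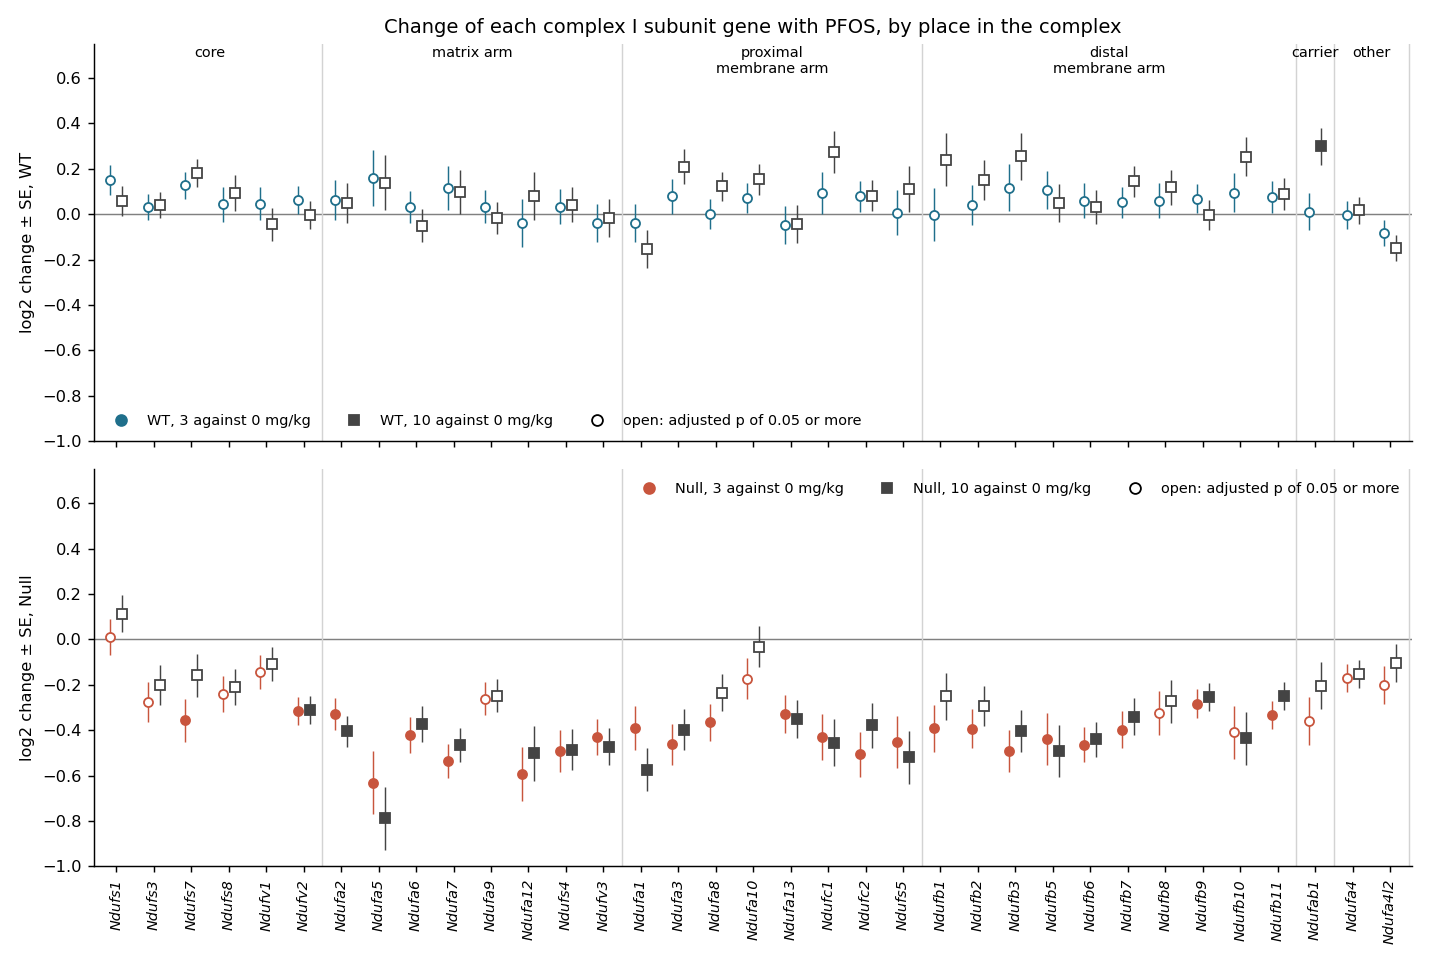
Log2 change from control ± SE (vertical axis) of each of the 35 subunits (horizontal axis, grouped by place in complex I) in WT (upper panel) and Null mice (lower panel). Circles are 3 mg/kg, squares 10 mg/kg, and filled symbols passed an adjusted p of 0.05. In Null mice 34 subunits lay below 0 at each dose with Ndufs1 above it, and in WT mice only Ndufab1 at 10 mg/kg passed the test.

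Of the core subunits, which bind NADH, the flavin, and the iron-sulfur clusters, 6 were measured, and 2 fell at 3 mg/kg and 1 at 10 mg/kg. Ndufv2, which carries an iron-sulfur cluster beside the flavin, was 12.13, 12.23, 12.15, 12.18, and 12.15 in Null controls. It was 11.85, 11.87, 11.93, 11.72, and 11.90 at 3 mg/kg, and 11.76, 11.95, 11.88, 11.82, and 11.88 at 10 mg/kg. No treated array reached the lowest control at either dose. The changes were -0.32 ± 0.061 (SE, limma adjusted p = 0.0105) and -0.31 ± 0.061 (limma adjusted p = 0.00775), and the other 2 probe sets of Ndufv2 fell as well.

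Ndufs7, which holds the last iron-sulfur cluster before ubiquinone, was 11.85, 11.86, 11.87, 11.96, and 11.85 in Null controls and 11.47, 11.52, 11.75, 11.37, and 11.49 at 3 mg/kg. All 5 arrays at 3 mg/kg were below all controls, with a change of -0.36 ± 0.094 (limma adjusted p = 0.0432). Its values after 10 mg/kg spread from 11.39 to 11.92 and overlapped the controls (change -0.16, limma adjusted p = 0.334). The other probe set of Ndufs7 had -0.34 at 3 mg/kg and did not pass the test (limma adjusted p = 0.0943).

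Ndufs1, the largest core subunit, carries several iron-sulfur clusters. It was 10.80, 10.94, 10.86, 10.94, and 10.89 in Null controls, 10.89, 10.93, 11.02, 10.67, and 10.96 at 3 mg/kg, and 10.89, 11.11, 10.96, 10.84, and 11.18 at 10 mg/kg. The 3 groups overlapped, with changes of 0.01 ± 0.081 and 0.11 ± 0.081 (limma adjusted p = 0.969 and 0.438). Ndufv1, which binds NADH and the flavin, had -0.14 ± 0.075 and -0.11 ± 0.075 (limma adjusted p = 0.344 and 0.427). Ndufs3 had -0.28 and -0.20, and Ndufs8, another iron-sulfur subunit, -0.24 and -0.21, and none of these passed the test. The 6 core subunits had a median change of -0.26 and -0.18 at the lower and higher dose.

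Accessory subunits of the matrix arm had the lowest medians of the places in the complex, which was not tested. Of the 8 measured, 7 fell at each dose, with medians of -0.46 and -0.47. The exception, Ndufa9, had -0.26 and -0.25 (limma adjusted p = 0.0573 and 0.0505). Ndufa5, a small subunit bound to the hydrophilic arm, had the largest change of all members at both doses. Its values were 10.23, 10.70, 10.55, 10.61, and 10.61 in Null controls, 9.96, 10.07, 10.27, 9.47, and 9.78 at 3 mg/kg, and 9.49, 10.01, 9.78, 9.59, and 9.89 at 10 mg/kg. All arrays at 10 mg/kg were below the controls, and 1 array at 3 mg/kg was above the lowest control. The changes were -0.63 ± 0.140 at 3 mg/kg (1.55-fold lower, limma adjusted p = 0.0208) and -0.79 ± 0.140 at 10 mg/kg (1.73-fold lower, limma adjusted p = 0.00411). Its other probe set also fell, by 0.45 and 0.55. The authors could not verify the fall of this subunit in treated Null mice by real-time PCR, which used separate animals. They ascribed this to the small size of the changes relative to the technical variation of PCR.

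Ndufa12, a relative of the assembly factor Ndufaf2, fell by 0.59 ± 0.120 at 3 mg/kg (limma adjusted p = 0.0125) and by 0.50 at 10 mg/kg. Its Null controls ranged from 11.35 to 11.53, and the treated arrays from 10.53 to 11.11 and from 10.53 to 11.15. Ndufa7 fell by 0.54 ± 0.074 (limma adjusted p = 0.00197) and by 0.46, and all 5 of its probe sets fell at both doses. Ndufs4, an accessory subunit of the matrix arm whose loss causes mitochondrial disease, fell by 0.49 at each dose (limma adjusted p = 0.00898 and 0.00635). Ndufv3, Ndufa2, and Ndufa6 also fell at both doses, by 0.33 to 0.47.

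In the membrane arm, 7 of 8 accessory subunits next to the matrix arm (the proximal part) fell at 3 mg/kg and 6 at 10 mg/kg, with medians of -0.41 and -0.39. Ndufa1, a short subunit with a single membrane helix, fell by 0.39 and by 0.57 ± 0.096 (limma adjusted p = 0.00279). Its 5 arrays at 10 mg/kg were 11.79, 12.28, 12.30, 12.28, and 12.30 against 12.58 to 12.90 in controls, so that replicate 1 stood lowest and all 5 were below the controls. Ndufs5, which lies on the side of the intermembrane space, fell by 0.45 and by 0.52 ± 0.116 (limma adjusted p = 0.0138). Ndufa10 was the exception at both doses, with -0.17 and -0.03 (limma adjusted p = 0.339 and 0.872).

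The Ndufb genes encode subunits of the distal part of the membrane arm, far from the NADH site. Of the 10 measured, 8 fell at 3 mg/kg and 7 at 10 mg/kg, with medians of -0.40 and -0.32. Ndufb3 was 10.55, 10.76, 10.70, 10.70, and 10.58 in Null controls, 10.15, 10.32, 10.34, 9.90, and 10.13 at 3 mg/kg, and 10.15, 10.37, 10.17, 10.14, and 10.45 at 10 mg/kg. Neither treated group overlapped the controls, with changes of -0.49 ± 0.091 (limma adjusted p = 0.00856) and -0.40 ± 0.091 (limma adjusted p = 0.0148). Ndufb8 did not pass the test at either dose (-0.32 and -0.27, limma adjusted p = 0.0679 and 0.0947). Ndufb10 passed it at 10 mg/kg, and Ndufb1 and Ndufb2 at 3 mg/kg.

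The remaining members did not pass the test in Null mice. Ndufab1, the mitochondrial acyl carrier protein, which serves fatty acid and lipoate synthesis besides complex I, had -0.36 and -0.20 (limma adjusted p = 0.0679 and 0.269). Its 4 probe sets disagreed, since the brightest fell by 0.39 at 3 mg/kg (limma adjusted p = 0.0369) and a weak one had 0.19 there. Ndufa4 carries the name of a complex I gene but its protein is now placed in complex IV, and it had -0.17 and -0.15 (limma adjusted p = 0.152 and 0.153). Ndufa4l2, its relative known from hypoxia, had -0.20 and -0.10 and a weak signal, with a mean of 6.85 in Null controls.

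**Figure D3:**
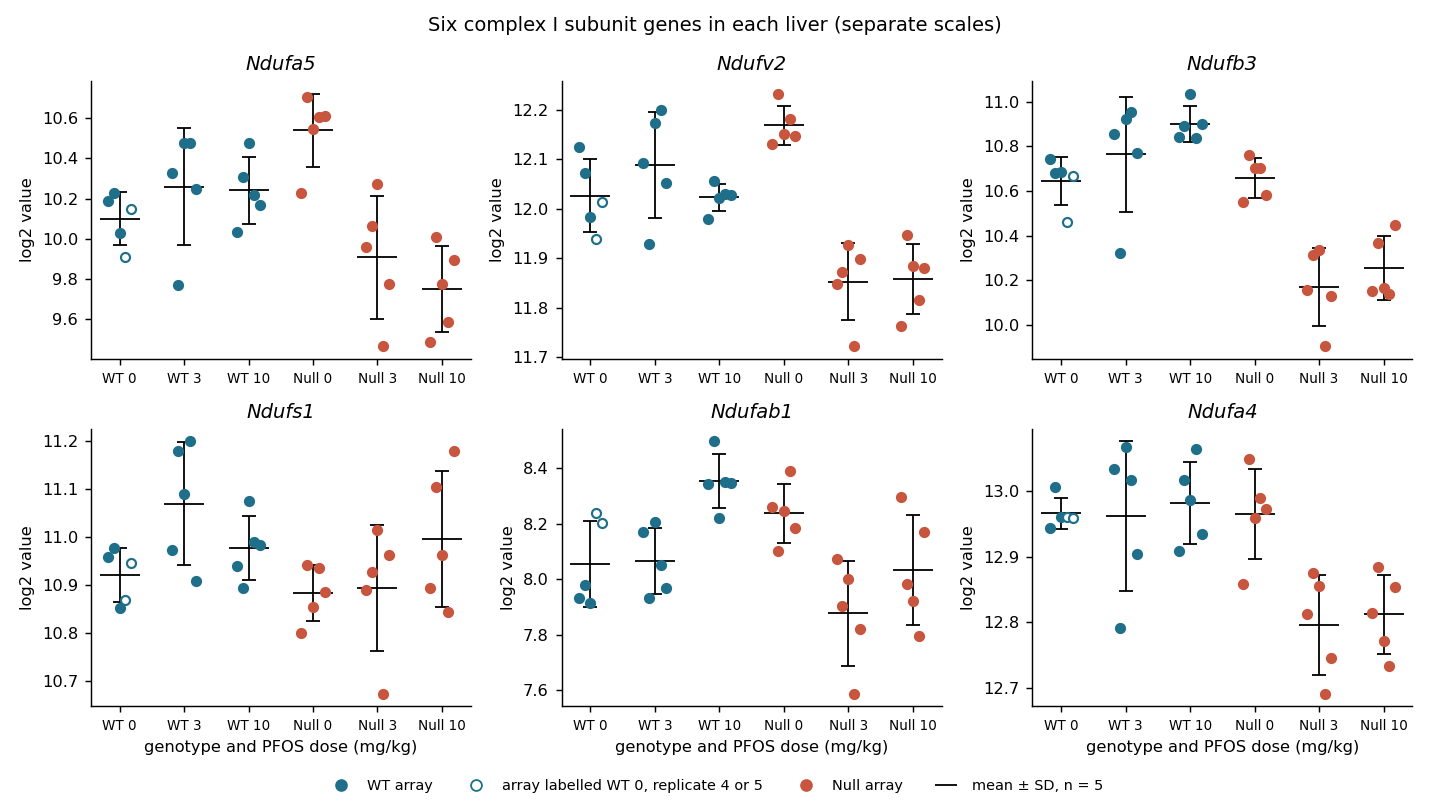
Log2 value (vertical axes, a separate scale for each gene) of Ndufa5, Ndufv2, Ndufb3, Ndufs1, Ndufab1, and Ndufa4 in each liver, by genotype and PFOS dose in mg/kg. Points are arrays, open points the 2 doubted arrays, and bars the mean ± SD of 5 arrays. Treated Null arrays lay below all Null controls for Ndufv2 and Ndufb3, and overlapped them for Ndufs1.

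Within a group the subunits tended to be extreme in the same livers. Replicate 4 at 3 mg/kg was the lowest Null array of its group in 28 of the 35 subunits, and replicate 4 at 10 mg/kg in 28. WT replicate 2 at 3 mg/kg was the lowest of its group in 26. The members are therefore no replicates of a condition. Over all 73 probe sets of the members, 69 had a change below 0 at each dose in Null mice, 44 fell at 3 mg/kg and 39 at 10 mg/kg, and 0 rose.

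The 5′ ends of the genes were read because many members fell together. RefSeq promoters (GRCm38.p6, 250 bases before to 50 after each gene's start) were found for 31 of the 35 members, 23 of which fell in Null mice at one dose or the other. The letters AAGATGGC, known as a binding motif of the factor YY1, were searched on both strands. They occurred in 6 of the 31 members (19.4%) and in 3.19% of 27025 genes with an entry. They were present in 4 of the 23 that fell (17.4%) and in 2 of the 8 that did not (25.0%). The 6 stretches are shown because the letters lay in the same orientation and at a like distance from the start in each, between base 23 and base 46 of the gene. Capitals mark the letters, and whether their ATG is the start codon was not determined.
Ndufa3 (chr7:3617384-3617413, plus strand): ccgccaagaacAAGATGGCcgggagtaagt
Ndufc1 (chr3:51408915-51408944, minus strand): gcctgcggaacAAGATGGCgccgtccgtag
Ndufs4 (chr13:114388045-114388074, minus strand): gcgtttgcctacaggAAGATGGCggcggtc
Ndufs7 (chr10:80249462-80249491, plus strand): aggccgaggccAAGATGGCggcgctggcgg
Ndufa9 (chr6:126849097-126849126, minus strand): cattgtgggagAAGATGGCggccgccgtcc
Ndufb8 (chr19:44555393-44555422, minus strand): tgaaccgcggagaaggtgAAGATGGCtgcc

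Of these genes, Ndufa3, Ndufc1, Ndufs4, and Ndufs7 fell in Null mice at 3 mg/kg and Ndufa9 and Ndufb8 did not pass the test. The ETS letters CCGGAAG, which GABP binds, occurred in 4 of the 31 members (12.9%) and in 9.93% of all genes. They were present in 2 of the 23 members that fell (8.7%) and in 2 of the 8 that did not (25.0%). Their reverse complement lay at bases 2 to 8 of Ndufs3 and at bases 16 to 22 of Ndufs8, which are not shown. Sites before the gene start lay in Ndufb6, Ndufb7, and Ndufs3, shown here with the letters (or their reverse complement) in capitals.
Ndufb6 (chr4:40279635-40279664, minus strand): tcgtccttgttCTTCCGGtcccctccccta
Ndufb7 (chr8:83566727-83566756, plus strand): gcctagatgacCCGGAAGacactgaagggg
Ndufs3 (chr2:90904730-90904759, minus strand): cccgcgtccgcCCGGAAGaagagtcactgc

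The NRF1 palindrome, the ERR letters TCAAGGTCA, and the PPAR direct repeat, each searched without a mismatch on both strands, occurred in 0 of the 31 members and in 1.07%, 0.466%, and 0.0481% of all genes. A match is a description of letters in this window only.

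Genes of the other respiratory complexes were counted in the same way. In Null mice, complex III had 4 of 9 genes lower at each dose, complex IV 7 and 4 of 9, and complex V, the ATP synthase, 11 and 12 of 18, at 3 and 10 mg/kg. None of these genes rose. Their medians were -0.25 and -0.28 for complex III, -0.29 and -0.26 for complex IV, and -0.34 and -0.36 for complex V. Uqcrh and Uqcr10 of complex III fell by 0.51 and 0.49 at 3 mg/kg (limma adjusted p = 0.00106 and 0.00762). Cox7a2 and Cox5b of complex IV fell by 0.48 and 0.38 at 3 mg/kg (limma adjusted p = 0.00457 and 0.0243), and Atp5j and Atp5l of complex V by 0.32 and 0.41 (limma adjusted p = 0.0114 and 0.00321). Complex II, which shares no subunit with complex I and feeds electrons from succinate, had 0 of 4 genes called by limma at either dose, with 2 at an unadjusted p under 0.05 at each and medians of -0.22 and -0.19. Its Sdhc and Sdha had -0.23 and 0.00 at 3 mg/kg.

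Assembly factors, mitochondrially encoded subunits, and other mitochondrial proteins were counted likewise. Of 16 complex I assembly factors 2 fell at each dose, with medians of -0.09 and -0.08. Ndufaf8 fell by 0.55 at 3 mg/kg (limma adjusted p = 0.00266) and by 0.36 at 10 mg/kg, and Ndufaf3 fell by 0.39 at 3 mg/kg (limma adjusted p = 0.0219). Of the subunits encoded in mitochondrial DNA only ND5 was measured, with 0.16 ± 0.083 at 3 mg/kg and -0.05 ± 0.083 at 10 mg/kg (limma adjusted p = 0.355 and 0.787). Of 16 other mitochondrial proteins 2 fell at 3 mg/kg and 1 at 10 mg/kg, with medians of -0.06 and -0.01. These were Cycs, cytochrome c, which fell by 0.41 and 0.38 (limma adjusted p = 0.0154 and 0.0167), and Tomm22 of the import receptor, which fell by 0.27 at 3 mg/kg (limma adjusted p = 0.0302).

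Of 12 transcription regulators of respiratory chain genes, limma called 0 in Null mice, with 2 and 3 at an unadjusted p under 0.05. Ppargc1a, the coactivator PGC-1α, had -0.08 at 3 mg/kg and -0.43 at 10 mg/kg (limma adjusted p = 0.841 and 0.0917), and Nrf1 had -0.17 and -0.14. In WT mice Ppargc1a fell by 1.01 ± 0.213 at 10 mg/kg (limma adjusted p = 0.00911), and by 1.16 ± 0.249 without the doubted arrays (limma adjusted p = 0.0047). The authors saw no up-regulation of Ppargc1a in either genotype, on the arrays or by real-time PCR in separate animals. They state that PFOS left its expression unchanged, which differs from the fall given here for WT mice.

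**Figure D4:**
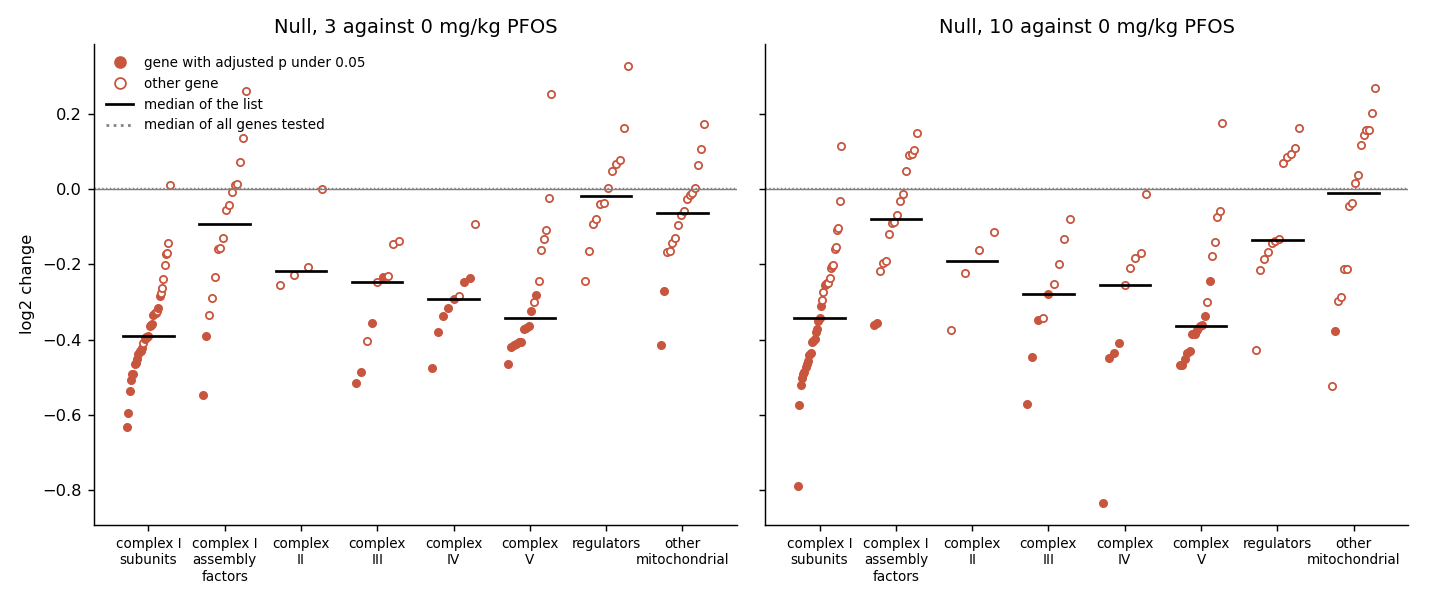
Log2 change from control (vertical axis) of each gene in Null mice at 3 mg/kg (left) and 10 mg/kg (right), by gene list (horizontal axis). Filled points passed an adjusted p of 0.05, black bars are list medians, and the dotted line is the median of all genes tested. Complexes I, III, IV, and V held genes that fell, with complex I medians of -0.39 and -0.34, and complex II, with 4 genes measured, held none that passed the test.

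Markers of the liver's cell types and of RNA quality were read beside these values. Of 8 hepatocyte markers limma called 0 in Null mice at either dose, with 3 at an unadjusted p under 0.05 at each, and the mean of that list ranged from 12.50 to 12.74 in controls, 12.61 to 12.81 at 3 mg/kg, and 12.57 to 12.78 at 10 mg/kg. Of 11 Kupffer cell and macrophage markers 0 were called at 3 mg/kg and 3 fell at 10 mg/kg (Cd5l, C1qa, and C1qc), with medians of -0.12 and -0.36. The mean of that list ranged from 8.62 to 9.13 in Null controls, 8.59 to 9.02 at 3 mg/kg, and 8.17 to 8.79 at 10 mg/kg. Of these markers 9 had a change below 0 at 3 mg/kg, 3 of the 11 with an unadjusted p under 0.05, and the part of the Kupffer cell markers in the fall of the subunits was not tested at either dose. Of 8 endothelial markers 2 rose at 10 mg/kg, and of 6 stellate, 3 cholangiocyte, 4 lymphocyte, and 1 erythroid marker none passed the test at either dose. The 3′ minus 5′ log2 difference of Gapdh was 0.18 ± 0.035, 0.13 ± 0.024, and 0.13 ± 0.055 in Null mice at 0, 3, and 10 mg/kg, and that of Actb 0.44 ± 0.044, 0.48 ± 0.016, and 0.44 ± 0.049, and the part of these differences was not tested.

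In WT mice the same doses were compared in a fit of the WT arrays. At 3 mg/kg limma called 0 subunits, with 1 at an unadjusted p under 0.05 and 0 by the methods' t-test, while 0.239% of all genes rose and 0.00823% fell. Changes ran from -0.08 to 0.16 with a median of 0.05, and without the doubted arrays limma called 0 and the median was 0.04. The only change that passed the test at 10 mg/kg was 1 rise, while 7.53% of all genes rose and 5.54% fell. Changes ran from -0.15 to 0.30 with a median of 0.08 (0.05 without the doubted arrays), and 9 subunits had an unadjusted p under 0.05. These 9 were counted with the doubted arrays. No share of all genes is set beside the 9, so that they are not read as a trait of the subunits. In 4 subunits every array at 10 mg/kg lay above every control, as in 5.82% of all genes, and against the 3 controls left without the doubted arrays this held for 9, as in 16% of all genes. Between 10 and 3 mg/kg limma called 0, with 1 at an unadjusted p under 0.05 and 0 by the methods' t-test, while 3.77% of all genes rose and 2.91% fell, and the median of the subunits was 0.01. Without the doubted arrays, which there enter only the estimate of the spread, Ndufab1 was called higher (0.29, limma adjusted p = 0.0197).

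The subunit that rose was Ndufab1. It was 7.93, 7.98, 7.92, 8.24, and 8.20 in the arrays labelled WT 0 mg/kg, 8.17, 7.93, 8.21, 8.05, and 7.97 at 3 mg/kg, and 8.35, 8.50, 8.22, 8.35, and 8.35 at 10 mg/kg. The 2 high controls were the doubted arrays. The change at 10 mg/kg was 0.30 ± 0.083 (limma adjusted p = 0.0327) with them and 0.41 ± 0.081 (limma adjusted p = 0.00278) without them. Without them, Ndufb10 and Ndufs7 rose as well, by 0.27 ± 0.092 and 0.23 ± 0.068 (limma adjusted p = 0.0438 and 0.0268). No subunit rose without WT control replicate 1, 2, or 3, without replicate 4 at 3 mg/kg, or without replicate 1, 2, 4, or 5 at 10 mg/kg, while 3 rose without control replicate 5 and 4 without replicate 2 at 3 mg/kg. The 3 other probe sets of Ndufab1 did not pass the test, with 0.22, -0.23, and -0.24. The chosen probe set was weak beside the brightest of the gene, which had a mean of 12.05.

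Core subunits in WT mice had changes of -0.04 to 0.18 at 10 mg/kg, and of -0.08 to 0.23 without the doubted arrays. Ndufs7 was 11.85, 11.81, 11.61, 11.82, and 11.91 in controls and 11.98, 12.03, 11.95, 11.94, and 12.01 at 10 mg/kg. Its groups did not overlap, and the change of 0.18 ± 0.060 did not pass the test (limma adjusted p = 0.0637). Ndufv2 had 0.06 and -0.004, Ndufs1 0.15 and 0.06, and Ndufa5 0.16 and 0.14 at 3 and 10 mg/kg. Without the doubted arrays these were 0.03 and -0.04 for Ndufv2, 0.14 and 0.05 for Ndufs1, and 0.11 and 0.09 for Ndufa5. Ndufa5 was 10.19, 10.23, 10.03, 9.91, and 10.15 in WT controls and 10.03, 10.31, 10.48, 10.22, and 10.17 at 10 mg/kg, and these ranges overlapped. WT replicate 2 at 3 mg/kg had 9.77 for Ndufa5, where the other 4 arrays of its group had 10.25 to 10.48.

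Whether the response differed between genotypes was tested in a fit of all 30 arrays, as the change in Null mice minus the change in WT mice. A lower response in Null mice at 3 mg/kg was found in 13 subunits and a higher one in 0, while 0.995% of all genes were lower and 0.239% higher, and the median difference was -0.39. For 10 mg/kg these were 20 and 0 subunits, while 3.03% of all genes were lower and 0.749% higher, and the median was -0.45. Without the 2 doubted arrays the counts were 1 and 15 with medians of -0.43 and -0.41, and 0.189% and 3.73% of all genes were lower. The sizes thus stayed close while most calls at 3 mg/kg were lost. The count at 3 mg/kg ran from 1 (without WT replicate 3 at 3 mg/kg) to 23 (without WT replicate 2 at 3 mg/kg). It was 3 to 8 without any 1 of WT control replicates 3 to 5, WT replicates 1, 4, and 5 at 3 mg/kg, or Null replicates 1, 2, 4, and 5 at 3 mg/kg, 2 to 6 without Null control replicate 2, 3, or 4, and 20 without Null replicate 3 at 3 mg/kg. The count at 10 mg/kg ran from 11 to 22, and was 12 without WT control replicate 3, WT replicate 2 at 10 mg/kg, Null control replicate 4, or Null replicate 3 at 10 mg/kg, 13 without Null control replicate 2, and 11 without Null replicate 4 at 10 mg/kg.

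Ndufa5 had the largest difference in response at both doses, -0.79 ± 0.192 at 3 mg/kg (limma adjusted p = 0.0443) and -0.93 ± 0.192 at 10 mg/kg (limma adjusted p = 0.0086). Without the doubted arrays these were -0.74 ± 0.211 (limma adjusted p = 0.115) and -0.88 ± 0.211 (limma adjusted p = 0.0212). Next at 3 mg/kg were Ndufa7 and Ndufb3, with -0.65 and -0.61 (limma adjusted p = 0.0145 and 0.0313), and limma adjusted p of 0.0505 and 0.107 without the doubted arrays. Next at 10 mg/kg, Ndufc1 and Ndufb10, both of the membrane arm, had -0.73 and -0.69 (limma adjusted p = 0.00465 and 0.0108) and -0.74 and -0.71 without those arrays. The other probe set of Ndufc1 had smaller changes, with 0.14 in WT and -0.23 in Null mice at 10 mg/kg against 0.27 and -0.46 for the chosen one.

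By place in the complex, the lower responses in Null mice at 10 mg/kg were 1 of 6 core subunits, 6 of 8 in the matrix arm, 5 of 8 in the proximal and 7 of 10 in the distal membrane arm, and Ndufab1. Without the doubted arrays they were 0 of 6, 4 of 8, 5 of 8, and 5 of 10 in the same order, and Ndufab1. Among core subunits, Ndufv2 had -0.38 and -0.31 at 3 and 10 mg/kg (limma adjusted p = 0.0227 and 0.0285) and Ndufs7 -0.48 and -0.34 (limma adjusted p = 0.0313 and 0.0815). Without the doubted arrays neither passed the test at either dose, with limma adjusted p of 0.0806 and 0.0642 for Ndufv2 and 0.0561 and 0.0618 for Ndufs7. Ndufs1 had -0.14 and 0.06, Ndufv1 -0.19 and -0.06, Ndufs3 -0.31 and -0.24, and Ndufs8 -0.28 and -0.30, and none of these 4 passed the test.

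The genotypes were also compared at each dose, in the fit of all 30 arrays. At 0 mg/kg limma called 0 subunits, with 16 at an unadjusted p under 0.05, while 0.897% of all genes were higher in Null mice and 0.683% lower. The median difference, Null minus WT, was 0.15 (0.01 for all genes), and 32 of the 35 subunits had a higher mean in Null mice. Without the doubted arrays Ndufa4, Ndufb11, Ndufb3, and Ndufs1 had a lower mean in Null mice and the others a higher one. No share of all genes is set beside the 16 and the 32, so that neither is read as a trait of the subunits. The 16 were counted with the doubted arrays. In 8 subunits every Null control lay above every array labelled WT 0 mg/kg, as in 3.39% of all genes, and without the doubted arrays in 13, as in 7.98%. Ndufa5 had 0.44 ± 0.136 (limma adjusted p = 0.101) and Ndufb10 0.39 ± 0.104 (limma adjusted p = 0.0584). Without the doubted arrays these were 0.39 and 0.41 (limma adjusted p = 0.243 and 0.0781), the median was 0.13, and limma again called 0.

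In treated mice the median difference had the opposite sign to that in controls. After 3 mg/kg 17 subunits were lower in Null mice and 0 higher, while 5.09% of all genes were lower and 5.88% higher, with a median of -0.25 for the subunits. After 10 mg/kg 21 were lower and 0 higher, while 7.83% of all genes were lower and 6.32% higher, with the same median. In 8 and 14 subunits every Null array lay below every WT array, as in 4.21% and 5.5% of all genes. Both comparisons share the estimate of the spread from all 30 arrays. In a fit of the 10 arrays at 10 mg/kg alone the count was 7, in place of 21. It was 12 without WT replicate 2, 11 without Null replicate 3, and 10 without Null replicate 4 at 10 mg/kg. The doubted arrays belong to neither comparison and enter only the estimate of the spread.

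Ndufb3 differed most at both doses, by -0.60 ± 0.097 at 3 mg/kg (limma adjusted p = 0.000226) and by -0.65 ± 0.097 at 10 mg/kg (limma adjusted p = 3.64e-05). It was 10.85, 10.32, 10.92, 10.95, and 10.77 in WT mice at 3 mg/kg and 10.84, 10.89, 11.04, 10.84, and 10.90 at 10 mg/kg. Its Null values given above overlapped those of WT at 3 mg/kg through WT replicate 2 alone, and did not overlap at 10 mg/kg. In controls it was 10.74, 10.68, 10.68, 10.46, and 10.67 in WT and did not differ beyond its spread from Null (0.01 ± 0.097, limma adjusted p = 0.974, and -0.04 ± 0.112 without the doubted arrays, limma adjusted p = 0.918).

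The next after 3 mg/kg were Ndufa7 and Ndufb11, with -0.44 and -0.41 (limma adjusted p = 0.00125 and 9.21e-05). The next after 10 mg/kg were Ndufc1 and Ndufa5, with -0.55 and -0.49 (limma adjusted p = 0.000349 and 0.017). Of the core subunits, Ndufs7 had -0.41 and -0.26 (limma adjusted p = 0.00104 and 0.0224) and Ndufv2 -0.24 and -0.17 (limma adjusted p = 0.00711 and 0.0487), and Ndufs1, Ndufs3, Ndufs8, and Ndufv1 did not pass the test at either dose. Ndufa4, the complex IV subunit, was 0.17 lower in both treated comparisons and passed the test at 10 mg/kg alone (limma adjusted p = 0.0559 and 0.043). Ndufa4l2 had -0.02 and 0.14.

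**Figure D5:**
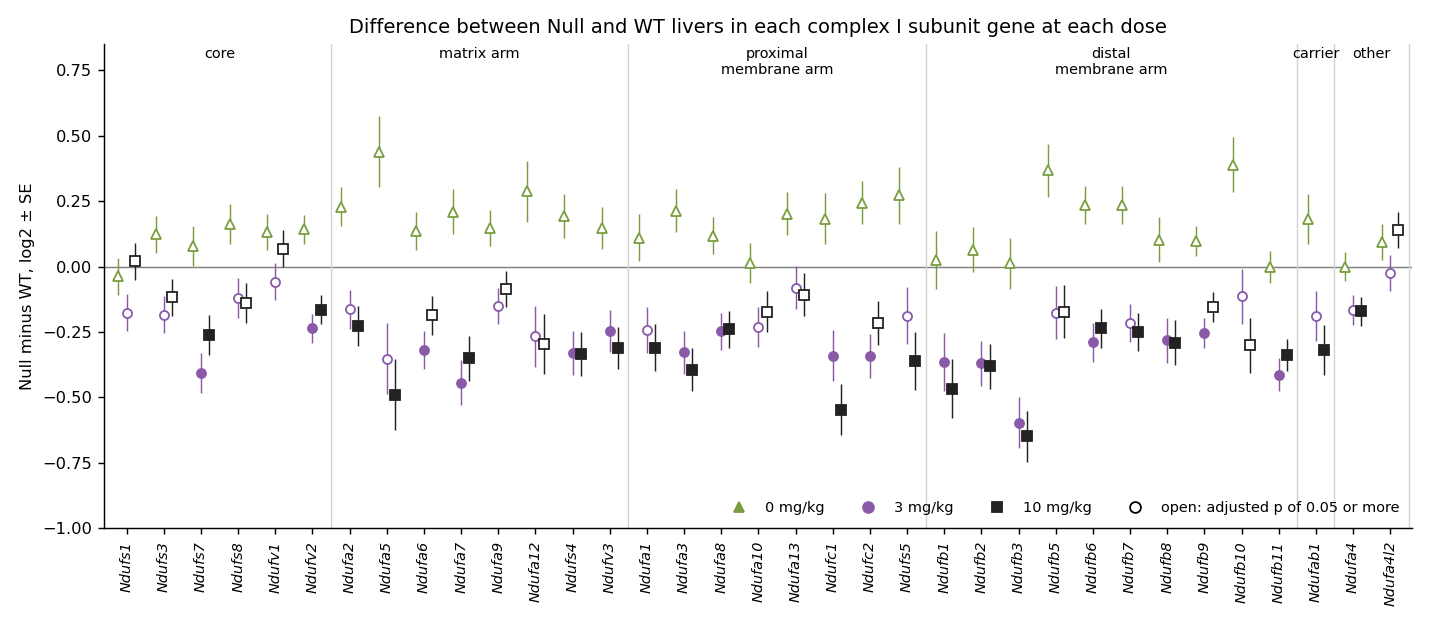
Difference between Null and WT livers in log2 value ± SE (vertical axis) for each of the 35 subunits (horizontal axis, grouped by place in complex I) at 0, 3, and 10 mg/kg PFOS. Filled symbols passed an adjusted p of 0.05. Controls (triangles) lay mostly above 0 with a median of 0.15, and treated livers (circles and squares) mostly below it, with a median of -0.25 at both doses.

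Markers of cell types moved with some of these comparisons. In WT mice at 10 mg/kg 4 of 8 hepatocyte markers fell (Hnf4a, Tat, Cps1, and Ass1), and the mean of that list ranged from 12.37 to 12.50, against 12.63 to 12.74 in controls. Of the stellate markers Dcn fell there. Without the doubted arrays 3 hepatocyte, 3 endothelial, 3 stellate, and 1 Kupffer cell marker were lower in that comparison. In the difference in response, 2 hepatocyte markers (Tat and Cps1) were higher at 10 mg/kg, or 3 with 1 endothelial marker without the doubted arrays, and limma called 0 markers at 3 mg/kg, with 2 hepatocyte, 1 endothelial, 1 stellate, and 1 cholangiocyte marker at an unadjusted p under 0.05. Between genotypes, Null mice had 1 endothelial marker higher at 0 mg/kg (0 without the doubted arrays). They had 1 Kupffer cell, 1 endothelial, 1 stellate, and 1 erythroid marker higher at 3 mg/kg (C1qb, Tek, Col3a1, and Alas2), and 3 of 8 hepatocyte markers (Hnf4a, Tat, and Cps1) higher at 10 mg/kg, with 2 stellate markers besides when the doubted arrays were left out. The part of these markers in the differences of the subunits was not tested.

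Over the 6 groups, 23 of the 35 subunits had their highest group mean in Null controls and 11 in WT mice at 10 mg/kg, and 23 had their lowest in Null mice at 3 mg/kg and 9 in Null mice at 10 mg/kg. No subunit had its highest mean in treated Null mice, and none had its highest or lowest in WT controls. The WT control means used here include the doubted arrays, and no share of all genes is set beside these counts. For Ndufv2 the order of group means ran from 12.17 in Null controls through 12.09, 12.03, and 12.02 in WT mice at 3, 0, and 10 mg/kg to 11.86 and 11.85 in Null mice at 10 and 3 mg/kg. The 3 WT means lay within their spread of each other, as did the 2 treated Null means. For Ndufa4 the 4 other groups lay between 12.96 and 12.98, and the treated Null means were 12.80 and 12.81.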

How the data were processed

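The authors hybridised RNA of each of 30 livers to an Affymetrix 430_2 mouse genome array and deposited log2 values made with Robust Multichip Average (RMA). The arrays give no counts, and RMA sets them to a common distribution, so that a change is relative to the other transcripts. The table held 45101 probe sets, and 64 controls were left out. Symbols came from the platform annotation (34958 probe sets with 1 gene, 932 with several, 9211 with none) and 34754 were updated by Entrez identifier. A probe set was kept if 5 or more arrays exceeded 5.65, the overall median. Where a gene had several, the smallest p for any effect of dose decided, as the methods resolve duplicates.

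Groups were taken from the labels. Tests were made with limma 3.58.1 in R 4.3.3 with Benjamini-Hochberg adjustment over all 24069 kept probe sets and a threshold of 0.05: the 15 arrays of a genotype for dose comparisons, all 30 arrays for differences in response and between genotypes. Scripts were tested on simulated data. Figures were drawn with matplotlib 3.10.9.

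Named with values were the core subunits, the 3 called members with the largest change in each comparison, members called against the majority, Ndufa5, Ndufa4, Ndufa4l2, and 2 genes of each other list with the smallest p. Further members were named after their values were seen. The members and lists were chosen with earlier results of these data known. The highest correlation between 2 arrays was 0.997, and no array was taken as a duplicate. Separate mice are stated per array, so that the spread is between animals.

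Alternatives were the filter, the choice of probe set, array scaling, array weights, the spread model, the groups fitted together, a block for the replicate number, each array left out, and the methods' t-test (one-way analysis per genotype at an unadjusted p of 0.0025). Added after seeing the data were fits without the 2 doubted arrays and a call by any kept probe set. Those 2 arrays were chosen because their values go against their labels.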

Additional observations from a re-analysis of the deposited data

Results flagged for a closer look

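Of 114 sets of 5 arrays examined for 18 named subunits and the complex I mean, 10 held an array far from the others, and chance gives about 1 in 20. WT replicate 2 at 3 mg/kg stood low in 4 of them. Its Ndufa1 was 12.372 where the others had 12.659 to 12.703, its Ndufa7 10.026 (others 10.439 to 10.555), its Ndufc1 10.989 (others 11.422 to 11.571), and its Ndufs8 10.173 (others 10.346 to 10.416). The same array had the lowest complex I mean of the WT livers.

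The others were spread over 6 arrays. Ndufa1 was 11.793 in Null replicate 1 at 10 mg/kg (others 12.279 to 12.300), and Ndufs3 was 11.506 in Null replicate 4 at 3 mg/kg (others 11.894 to 11.981). Ndufs7 was 11.958 in Null control replicate 4 (others 11.848 to 11.865), and Ndufb10 was 10.965 in WT replicate 2 at 10 mg/kg (others 10.709 to 10.769). Among arrays labelled WT 0 mg/kg, Ndufa4 was 13.006 in replicate 2 (others 12.943 to 12.960) and Ndufb3 10.461 in replicate 4, a doubted array (others 10.666 to 10.743).

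The response to PFOS differed between genotypes by the interaction in limma for 13 subunits at 3 mg/kg. The log2 differences, Null minus WT, were -0.7902 for Ndufa5, -0.6534 for Ndufa7, -0.609 for Ndufb3, -0.4844 for Ndufs7, -0.4112 for Ndufb11, and -0.3778 for Ndufv2. At 10 mg/kg it differed for 20 subunits. They were -0.9285 for Ndufa5, -0.7295 for Ndufc1, -0.6905 for Ndufb10, -0.6593 for Ndufb3, -0.6316 for Ndufs5, and -0.5839 for Ndufa12. Smaller ones were -0.5605 for Ndufa7, -0.5023 for Ndufab1 (whose probe sets disagreed within each genotype), -0.3369 for Ndufb11, and -0.307 for Ndufv2. Without the 2 doubted arrays the counts were 1 and 15. The 1 at 3 mg/kg was Ndufc2 (-0.62, limma adjusted p = 0.0478), and no subunit listed here for 3 mg/kg passed the test. Of those listed for 10 mg/kg, Ndufa12, Ndufb11, and Ndufv2 did not pass it (limma adjusted p = 0.0644, 0.078, and 0.0642).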

How the results depend on the processing

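The counts of subunits lower in Null mice were 18 to 30 at 3 mg/kg and 18 to 25 at 10 mg/kg under every alternative other than leaving out 1 array. Over 30 changes of named subunits under the alternatives, 927 values kept their side of the threshold, 142 lost the call, and 0 were reversed. With single arrays left out, the count ran from 12 to 28 for Null 3 against 0 mg/kg, from 1 to 23 and from 11 to 22 for the difference in response at 3 and 10 mg/kg, and from 10 to 23 for Null against WT at 10 mg/kg. Subunits higher ran from 0 to 4 for WT 10 against 0 mg/kg (lower 0 to 1), 0 to 1 in both directions for WT 10 against 3 mg/kg, 0 to 3 for Null against WT at 0 mg/kg, and 0 to 1 at 10 mg/kg.

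For WT 10 against 0 mg/kg, 0 subunits were higher with no filter, with the probe set of the highest mean, with arrays shifted to the same median, or with the replicate block. Array weights gave 6 higher and 1 lower there, the methods' t-test after Benjamini-Hochberg 2 higher and 1 lower, any kept probe set 2 higher, and the fit without the doubted arrays, with probe sets chosen again, 3 higher and 1 lower. For WT 10 against 3 mg/kg, array weights and the fit without the doubted arrays gave 1 higher and 1 lower, and any kept probe set 1 lower.

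For the difference in response, no filter gave 3 lower at 3 mg/kg and 12 at 10 mg/kg, array weights 27 at 3 mg/kg, and the fit without the doubted arrays 1 at 3 mg/kg. For Null against WT, array weights gave 5 higher at 0 mg/kg, 27 lower at 3 mg/kg, and 1 higher at 10 mg/kg. Any kept probe set gave 1 higher at 0 mg/kg, the fit without the doubted arrays 1 higher at 10 mg/kg, and a fit of only the compared groups 7 lower at 10 mg/kg. The cause was not tested. Correlations of same-numbered arrays ran from -0.239 to 0.357, so that the numbers did not pair the samples. With the replicate block, 20 and 21 subunits were lower in Null mice at 3 and 10 mg/kg. The number of arrays and signals under the filter limit what could be detected.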
